A study of Mus musculus with 10 samples.

Results

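The leucine-rich, glioma inactivated (Lgi) genes encode secreted ligands, and Adam11, Adam22 and Adam23 encode their receptors. All 7 genes of this ligand and receptor family, Lgi1, Lgi2, Lgi3, Lgi4, Adam11, Adam22 and Adam23, were followed through single Bergmann glia at P6 and P30. Their probe sets were taken as those with a value in every cell that the array annotation ties to exactly 1 gene, that gene being one of the family. This gave 15 probe sets of the 43608 with a value in every cell, and 7 genes of the 17919 measured. The family was picked with values of this same comparison of ages known, so the values below are a description and were not tested.

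Bergmann glia are the radial astroglia of the cerebellar cortex, with somata beside the Purkinje neurons and fibers that cross the molecular layer. The study profiled 10 of them, 5 from mice at postnatal day 6 (P6), when granule neurons still migrate along the glial fibers, and 5 from mice at postnatal day 30 (P30), when the cortex is mature. All cells of both ages came from the mid-sagittal cerebellum of GFAP-GFP reporter mice, in which the promoter of the astroglial gene Gfap drives green fluorescent protein (GFP), and no agent was given at either age. Per the study's methods, single cells were chosen by strong GFP and the shape of Bergmann glia, drawn into glass capillaries, rinsed and picked again, and the cDNA of each, amplified by PCR, was hybridised to 1 Affymetrix whole-genome mouse expression array. Which animal a cell came from is not given, so each age counts as 1 sample and the SD and ranges describe cells only. Other astroglia also have an active Gfap promoter, and the choice by brightness and shape was meant to leave them out. The cDNA was also screened for the glial genes Gfap, Fabp7 and Slc1a3 among others. The neuronal genes screened were Nefl, Map2 and, in some cases, Tubb3. Only cDNA with every glial gene tested and no neuronal gene tested was taken for the arrays.

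Lgi proteins carry leucine-rich repeats and a propeller of EPTP repeats, and they bind from outside the cell to Adam11, Adam22 and Adam23. These 3 receptors belong to the ADAM family of membrane proteases but lack the catalytic site, and they act as adhesion and scaffold proteins. Lgi1 with Adam22 and Adam23 spans the cleft of excitatory synapses and holds AMPA receptors there through MAGUK scaffolds, and its loss causes epilepsy. Lgi4 is the glial ligand of the family, known from Schwann cells, where it is needed for the myelination of peripheral axons. Adam11 is known in the cerebellum for gathering Kv1 potassium channels at the basket cell terminals around the Purkinje cell.

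To show the regulatory sequence of a ligand and a receptor side by side, the stretch before the start of Lgi1 and of Adam23 is printed from RefSeq (GRCm38.p6), each as 250 bases on the plus strand, 5′ to 3′, with every CpG dinucleotide in capitals. Among the 4 members with a promoter entry (Lgi1, Lgi2, Adam22 and Adam23), Lgi1 held the fewest CpGs and Adam23 the most. The first lies at chr19:38264437-38264686 and the second at chr1:63445641-63445890.
Lgi1: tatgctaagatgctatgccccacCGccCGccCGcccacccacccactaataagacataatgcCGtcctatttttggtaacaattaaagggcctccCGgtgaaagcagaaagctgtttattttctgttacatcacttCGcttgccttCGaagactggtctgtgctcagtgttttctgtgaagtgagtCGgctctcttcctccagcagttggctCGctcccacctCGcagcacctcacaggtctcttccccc
Adam23: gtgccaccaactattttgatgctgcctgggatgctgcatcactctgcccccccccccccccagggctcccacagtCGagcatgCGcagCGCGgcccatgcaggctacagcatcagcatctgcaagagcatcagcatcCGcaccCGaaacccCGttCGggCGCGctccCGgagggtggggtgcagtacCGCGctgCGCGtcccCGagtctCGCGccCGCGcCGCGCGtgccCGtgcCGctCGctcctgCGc
The printed stretch of Lgi1 held 10 CpGs and that of Adam23 held 27. Over the whole entry of 300 bases, which runs on past the start site, Lgi1 had 13 CpGs, more than 62.1% of the 32851 promoters in the table, and Adam23 had 31, more than 89.4% of them. Lgi2 had 27 CpGs and Adam22 had 19, against a median of 7 over all promoters. GC content was 54.0% for Lgi1, 73.3% for Lgi2, 66.3% for Adam22 and 70.0% for Adam23, against a median of 52.7%. The arrays did not measure the promoters, and the CpG counts are a feature of the sequence alone.

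The measured values are normalised ratios. Each array was divided by its median, and each probe set by its own reference value. In 69.6% of all probe sets the median of the 5 P6 cells is 1, within 0.002, so that a ratio of 1 marks a typical P6 cell. In 30.4% that median became 1 once the lowest 1 or more P6 cells were left out, and 8 of the 15 family probe sets were of this kind. A ratio therefore says how a cell stands against other cells for the same probe set, not how much RNA it held, and levels of different genes cannot be compared. Ratios were averaged on the log2 scale, differences are P6 minus P30 and thus negative where P30 was higher, and a fold is the ratio of geometric means. In these data the abundance of a transcript in a cell and the yield of its amplification cannot be told apart. The 10 arrays have median log2 ratios between -0.46 and 0.00, the lowest in P30 cell 5.

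Of the 15 probe sets, 2 were over 3-fold higher at P30, that of Lgi4 and 1 of Lgi3. Over all probe sets 6.60% were past that size at P30. A further 1 was over 3-fold higher at P6, against 11.1% of all. In 1 probe set, that of Lgi4, all 5 P30 cells lay above all 5 P6 cells, against 1.20% of all, and in 0 did the P6 cells lie above all P30 cells, against 1.79% of all. P30 was the higher age in 11 of the 15, with a median difference of -1.04 on the log2 scale, where all probe sets had a median of 0.01 and split into 21542 higher at P30 and 22066 higher at P6. With the arrays scaled to their medians 12 were higher at P30, and with scaling to the hybridisation spikes 10. Averaged by gene, 1 of the 7 was past 3-fold at P30, against 4.93% of all genes, and 0 at P6, against 9.39%. Since the family was picked on this comparison, nothing is read from these shares.

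**Figure D1:**
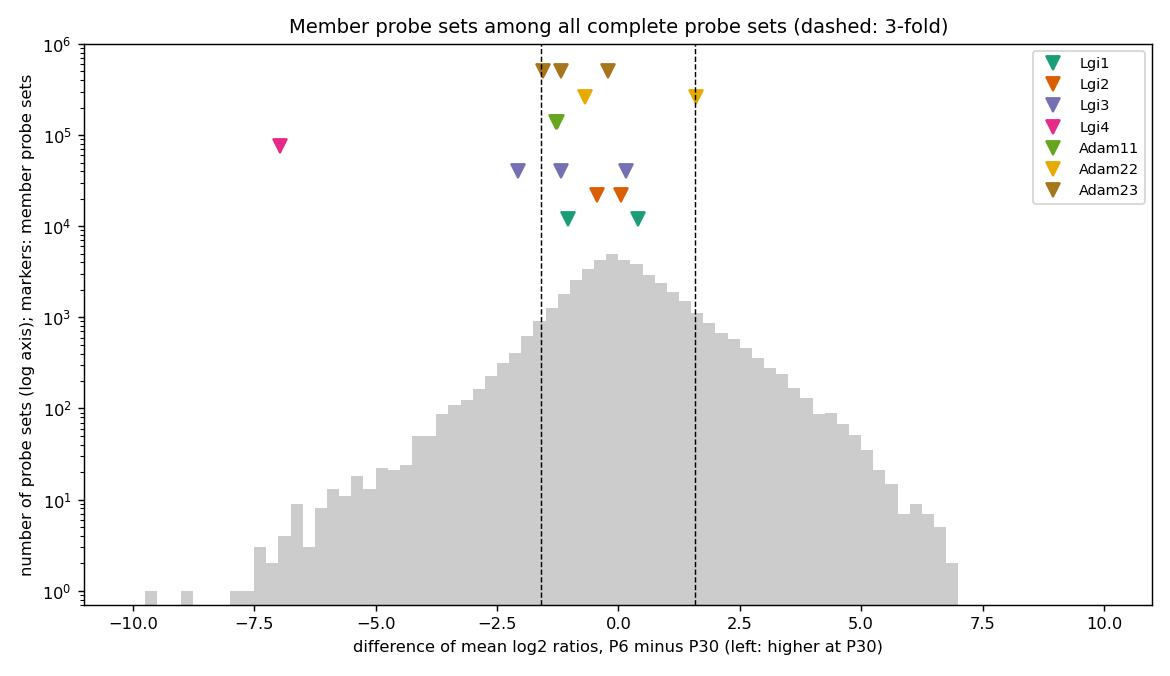
Mean log2 ratio at P6 minus that at P30 (x axis) for all 43608 complete probe sets (grey histogram, log axis) and for the 15 family probe sets (triangles, coloured by gene, whose height has no meaning). Dashed lines mark 3-fold. Lgi4 sits far to the left at -6.98, while the other 14 lie between -2.07 and 1.61.

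Lgi4, the glial ligand, was the member with the widest gap between the ages. Its ratios (probe set 1434121_at) were 0.837, 0.578, 0.834, 1.16 and 6.41 in P6 cells 1 to 5 and 241, 207, 109.8, 109 and 160.5 in P30 cells 1 to 5. Every P30 cell was thus far above every P6 cell, and the ratios at P30 spanned only a 2.21-fold range. On the log2 scale the mean was 0.32 ± 1.37 (SD, n = 5 cells) at P6 and 7.30 ± 0.52 (SD, n = 5 cells) at P30, a difference of -6.98 or 126-fold. Only 4 of the 17919 genes lay further toward P30, Lgi4 being at rank 5. The study flagged this probe set as present at P30 and absent at P6. The size of the fold thus rests on P6 signals not told apart from background. Without P6 cell 2 the difference was -6.70 or 104-fold. P6 cell 5 was the one P6 cell with a raised ratio, 2.94 log2 units above the median of the other 4, and without it the difference was -7.57 or 190-fold. That cell also carried the highest neuronal marker signal of its age, a median deviation of 3.62 over 10 neuronal genes with 6 of them over 3-fold. Of the neuronal genes of the screen, Nefl and Map2 were not raised in it, at -1.26 and 0.09. Tubb3, screened in some cases only, was raised, at 3.61. Cells were kept for lacking the screened neuronal genes, so low values of these are no separate check. The part of the neuronal signal in the Lgi4 ratio of P6 cell 5 was not tested.

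Lgi3, a ligand known to act on Kv1 channels of myelinated axons, was read by 3 probe sets that did not move together. Probe set 1460546_at had ratios of 1.00, 1.37, 0.875, 3.07 and 0.719 in the P6 cells and 4.81, 4.38, 7.89, 7.15 and 2.89 in the P30 cells. P30 cells 1 to 4 were above every P6 cell, and P30 cell 5 fell just under P6 cell 4, the only overlap. The means were 0.28 ± 0.82 (SD, n = 5 cells) and 2.35 ± 0.58 (SD, n = 5 cells), a difference of -2.07 or 4.20-fold. Probe set 1433667_at gave 1.00, 0.303, 0.565, 0.508 and 0.442 at P6 and 0.517, 0.553, 0.636, 0.262 and 47.6 at P30. Here 1 cell, P30 cell 5, made the difference of -1.18, which was 0.16 without it. Probe set 1436238_at ran from 0.0613 to 4.75 at P6 and from 0.171 to 1.41 at P30, with the ages overlapping and a difference of 0.17. The mean over the 3 probe sets was -1.03, or 2.04-fold higher at P30, which hides this disagreement.

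Lgi1, the ligand of excitatory synapses, showed no separation of the ages. Probe set 1435851_at had ratios of 1.26, 0.836, 3.79, 0.735 and 1.00 in the P6 cells and 0.552, 0.415, 3.93, 0.946 and 127 in the P30 cells. Again P30 cell 5 stood alone, 7.46 log2 units above the median of the other 4 P30 cells. Its removal turned the difference from -1.04 to 0.37. The second probe set, 1423183_at, ran from 0.14 to 1.67 at P6 and from 0.106 to 1.66 at P30, with a difference of 0.40. P30 cell 5 was the highest P30 cell there too.

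Lgi2, a ligand that is likewise known from an inherited epilepsy, in dogs, differed least between the ages. In probe set 1440147_at the P6 cells had 0.317, 0.765, 1.24, 0.341 and 0.225 and the P30 cells 0.316, 0.743, 1.10, 0.436 and 0.173, so that both ages covered the same range. The difference was 0.05, with means of -1.09 ± 1.01 (SD, n = 5 cells) at P6 and -1.14 ± 1.04 (SD, n = 5 cells) at P30. Probe set 1457040_at ran from 0.229 to 3.30 at P6 and from 0.509 to 3.07 at P30, with a difference of -0.43. The spread between cells of 1 age was larger than either difference.

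**Figure D2:**
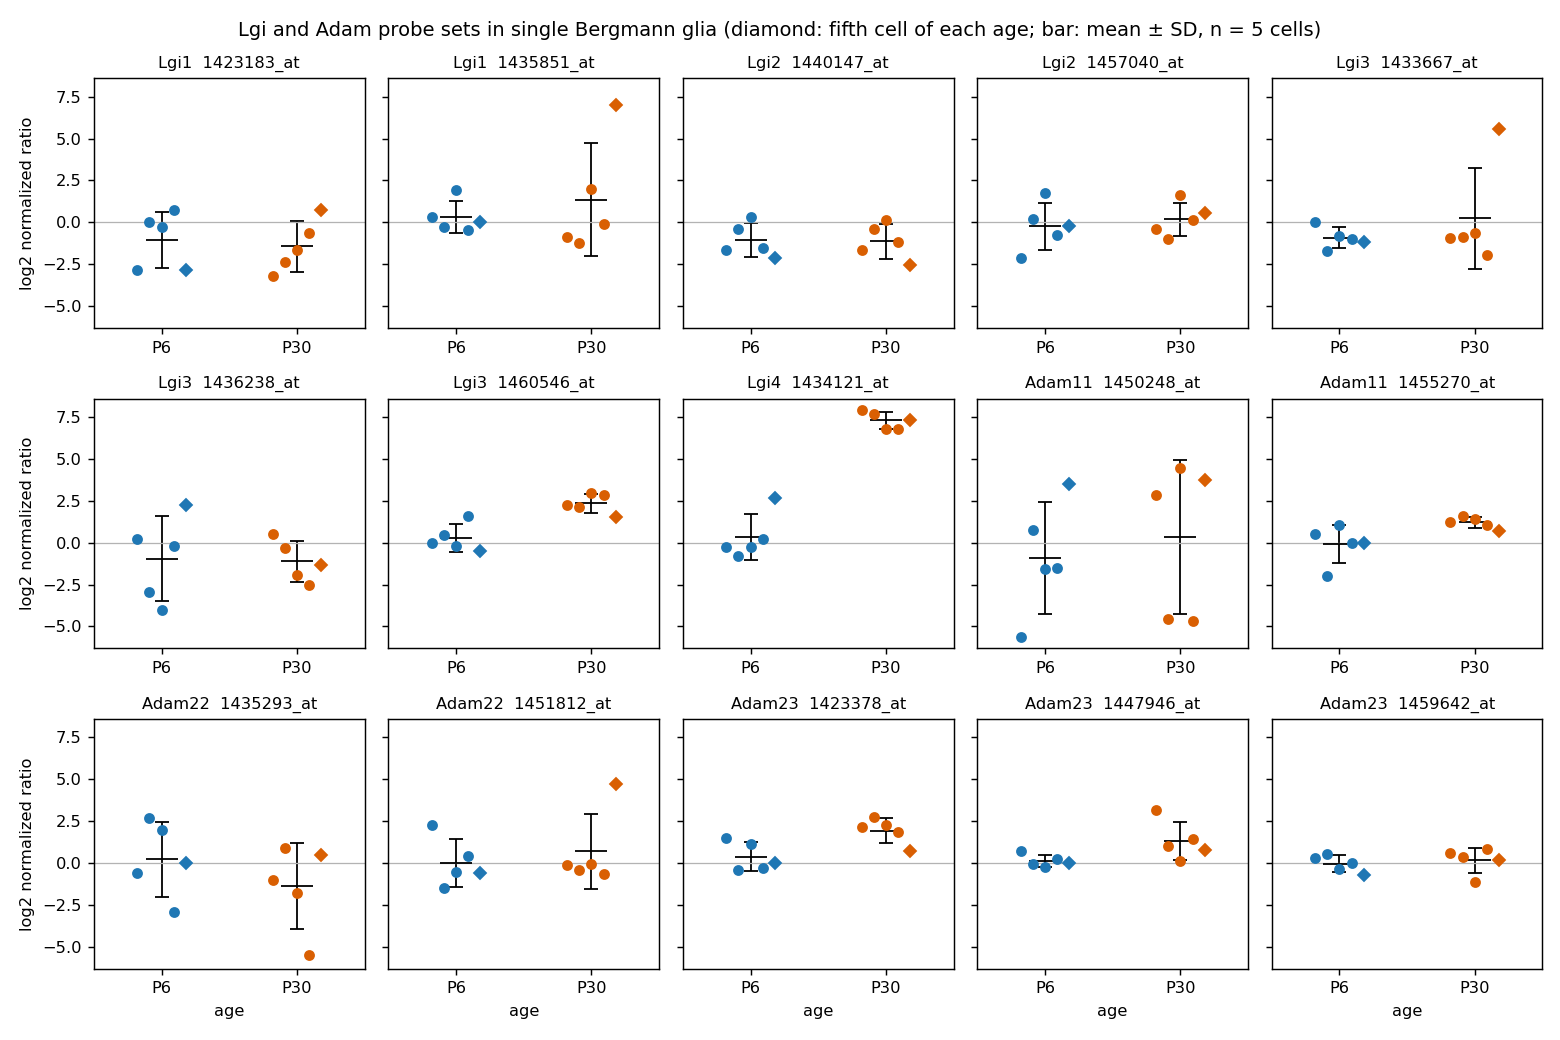
Log2 normalised ratio of each of the 15 probe sets in 5 P6 cells (blue) and 5 P30 cells (orange), with cell 5 of each age as a diamond and bars for the mean ± SD over cells. Lgi4 is the one panel in which the ages do not overlap, and P30 cell 5 lies far above the other P30 cells in panels of Lgi1, Lgi3 and Adam22.

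Among the receptors, Adam23, which sits on axons and presynaptic membranes, had the most regular pattern. Probe set 1423378_at gave 2.82, 0.75, 2.24, 0.809 and 1.00 at P6 and 4.37, 6.67, 4.77, 3.61 and 1.65 at P30. P30 cells 1 to 4 were above all P6 cells, while P30 cell 5 lay within the P6 range. The means were 0.39 ± 0.88 (SD, n = 5 cells) and 1.94 ± 0.75 (SD, n = 5 cells), a difference of -1.55 or 2.93-fold, just outside the 3-fold rule. Without P30 cell 5 it was -1.85 or 3.62-fold, and all P30 cells then lay above all P6 cells, where 3.27% of all probe sets did so. Probe set 1447946_at gave 1.64, 0.982, 0.843, 1.16 and 1.00 at P6 and 9.06, 2.02, 1.08, 2.75 and 1.75 at P30. P30 cell 3 alone overlapped with the P6 cells, and the difference was -1.18 or 2.27-fold. The third probe set, 1459642_at, overlapped throughout, from 0.606 to 1.47 at P6 and from 0.465 to 1.78 at P30, with a difference of -0.22.

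Adam11, the receptor of the basket cell terminal, gave 2 quite different readings. Probe set 1455270_at had ratios of 1.42, 0.256, 2.11, 0.992 and 1.00 in the P6 cells and 2.31, 3.04, 2.70, 2.09 and 1.65 in the P30 cells. The P30 cells lay close together, 3 of the 5 were above every P6 cell, and the other 2 fell below P6 cell 3. The means were -0.08 ± 1.14 (SD, n = 5 cells) and 1.20 ± 0.34 (SD, n = 5 cells), a difference of -1.28 or 2.44-fold. Probe set 1450248_at gave 0.0201, 1.66, 0.329, 0.344 and 11.3 at P6 and 7.27, 0.0422, 22.2, 0.0384 and 13.4 at P30. It was high in 3 P30 cells and very low in P30 cells 2 and 4. Its difference of -1.27 is close to that of the first probe set, but its pooled SD of 4.03 within ages was larger than that of 99.8% of all probe sets. Without P6 cell 1 the difference was -0.09 or 1.06-fold, and without P30 cell 4 it was -2.54 or 5.81-fold, the ends of the range with single cells left out.

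Adam22, the postsynaptic receptor of Lgi1 and the receptor of Lgi4 in peripheral nerve, had probe sets of opposite direction. In 1435293_at the P6 cells had 0.662, 6.45, 4.01, 0.13 and 1.00 and the P30 cells 0.499, 1.87, 0.295, 0.022 and 1.40. P6 cells 2 and 3 were above every P30 cell, and P30 cell 4 was the lowest of all. The difference of 1.61 or 3.05-fold higher at P6 was just inside the 3-fold rule, and without P30 cell 4 it was 0.57 or 1.49-fold. Probe set 1451812_at gave 4.76, 0.356, 0.686, 1.31 and 0.662 at P6 and 0.921, 0.756, 0.946, 0.641 and 26.1 at P30. P30 cell 5 again stood alone, and the difference of -0.69 became 0.31 without it. By gene, Adam22 was the only member with a higher mean at P6, by 0.46, which ranged from -0.22 to 1.19 with single cells left out. With spike scaling Lgi2 also had a higher mean at P6, by 0.11.

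P30 cell 5 was thus the cell in which the family most often stood out. In it 6 of the 15 probe sets (40.0%) were over 3-fold above the median of the other 4 P30 cells, against 14.7% of all probe sets in that cell and 0 to 4 of the 15 in each of the other 9 cells. These 6 were both probe sets of Lgi1 (7.46 and 2.74 log2 units above), 1 of Lgi3 (6.47), both of Adam22 (4.97 and 1.87) and 1 of Adam11 (4.59). Lgi4, at 0.09, did not stand out there. Nefl, Map2 and Tubb3, the neuronal genes of the screen, were at -0.39, -1.38 and 0.99 there. Cells were kept for lacking the screened neuronal genes, so low values of these are no separate check. Some other markers of neurons and vessels were raised in the same cell. Its median deviation was 2.58 over 5 Purkinje neuron genes (3 over 3-fold), 2.17 over 8 genes of endothelium and pericytes (6 over 3-fold), 0.94 over 8 granule neuron genes (3 over 3-fold), 0.77 over 10 neuronal genes (3 over 3-fold) and 0.29 over 11 oligodendrocyte genes (5 over 3-fold). The genes that led were Snap25 of synaptic vesicle release (6.40), Cbln3 of granule neurons (5.99) and Pvalb of Purkinje cells and interneurons (5.53). The array of that cell had the lowest median log2 ratio of the 10, and the deviations given here were not scaled for it. Over 17 astroglial genes the same cell had the lowest value of any cell, -0.80, and it was also below the others for 9 microglial genes (-0.53) and 2 genes of oligodendrocyte precursors (-0.89). The part of these other cells in the family's ratios of that cell was not tested.

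**Figure D3:**
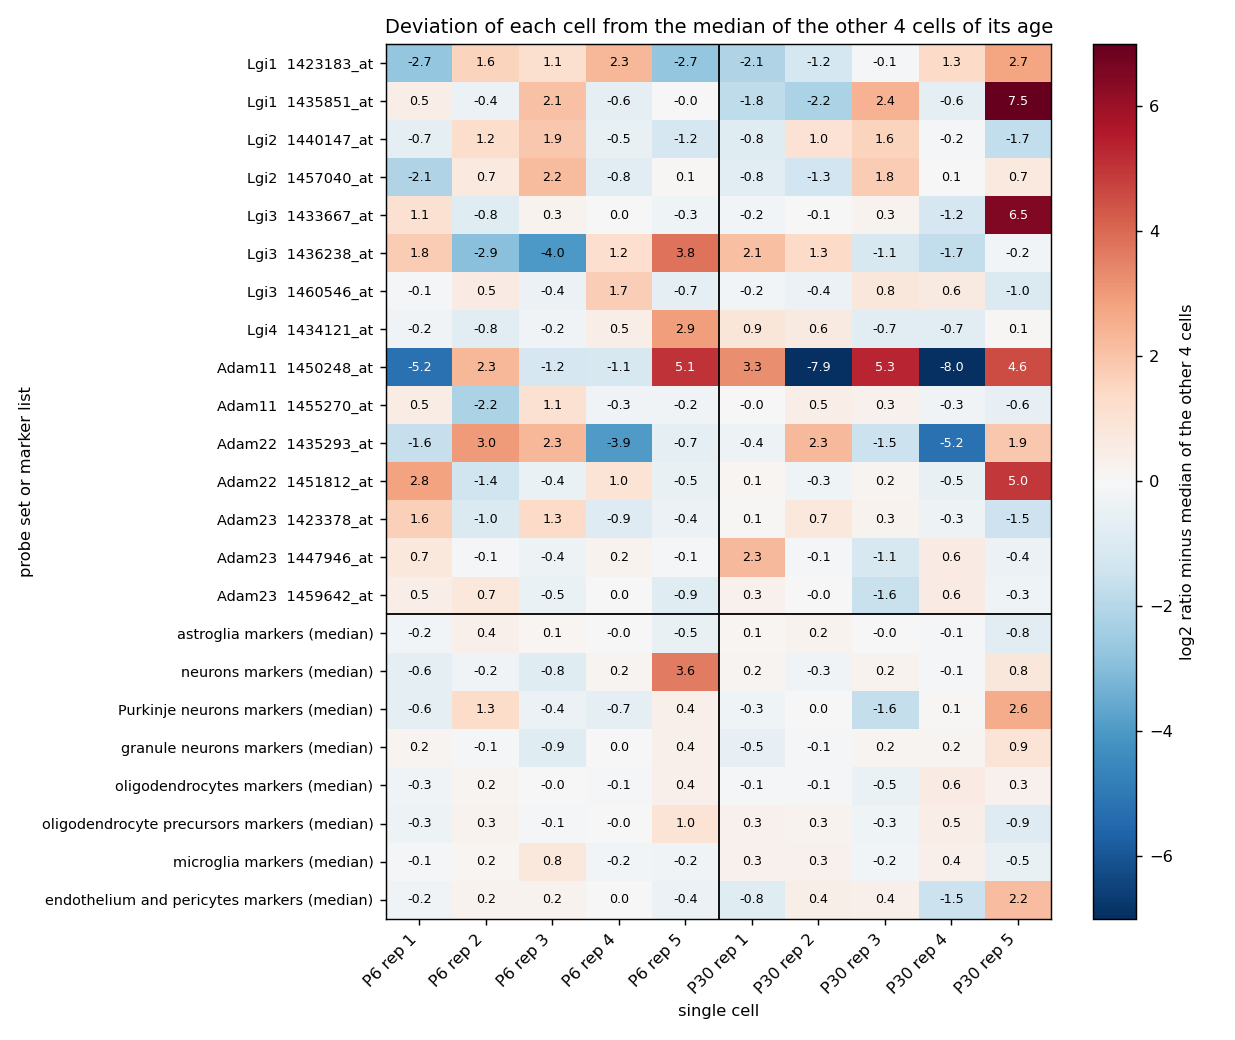
Log2 ratio of each cell minus the median over the 4 remaining cells of that age, for the 15 probe sets (top) and for the median of each of 8 marker lists (bottom). The column of P30 cell 5 holds 7.46 for Lgi1 and 6.47 for Lgi3 together with 2.58 for Purkinje neuron and 2.17 for endothelial and pericyte markers, whereas Lgi4 has 0.09 there.

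The label of Bergmann glia cannot be checked from ratios, which hold no level, so the 17 astroglial markers show only how cells differ from each other. Their medians overlapped between the ages, from -0.39 to 0.24 in the P6 cells and from -0.37 to 0.59 in the P30 cells, with a median difference of -0.45, and 15 of 17 were higher at P30, beside 8532 of all 17919 genes. Under spike scaling 10 of the 17 were higher at P30, with a median of -0.16. The 3 past 3-fold at P30 were Ntsr2 (a neurotensin receptor of astrocytes), Gja1 (the main astroglial connexin) and Luzp2, with differences of -6.41, -3.17 and -2.51. Ntsr2 was at 8.29 in P6 cell 2, within the P30 range, and its fold of 84.9 was 245 without that cell and 52.5 without P6 cell 3. Gfap, a glial gene of the screen, ran from -5.85 to 1.10 in the P6 cells and from -3.30 to 0.77 in the P30 cells. In at least 1 of its probe sets, 3 cells were at the lowest ratio kept. Oligodendrocyte genes are set beside the astroglial markers since Lgi3 and Lgi4 are known from myelinated axons. Of 11, 10 were higher at P30 with a median difference of -0.83, or 8 under spike scaling (median -0.53), and Cldn11 (4.03-fold) and Mbp (3.12-fold), both of the myelin sheath, were past 3-fold, against 4.93% of all genes. Cldn11 was 1.68-fold higher without P30 cell 4, 2.65-fold without P30 cell 5 and 2.64-fold without P6 cell 3, and Mbp fell under the rule without 6 of the 10 cells in turn, down to 2.13-fold without P30 cell 5. The 8 probe sets of Mbp did not move together, with differences from -3.76 to 2.70. Of these, 6 were past 3-fold, not all toward the same age, so the fold of Mbp is a mean over opposed probe sets. In some of these probe sets cells were at the floor, the lowest ratio kept, 5 of the 10 cells in all. The oligodendrocyte medians ran from -0.46 to 0.00 in the P6 cells and from -0.24 to 0.86 in the P30 cells, and their part in the Lgi3 and Lgi4 ratios was not tested.

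Genes that work with the Lgi proteins were grouped in fixed lists. The MAGUK scaffolds, which hold Adam22 and AMPA receptors at the synapse, had a median difference of -0.55 over 4 genes with 0 past 3-fold, the widest being Dlg1 at -0.84. The AMPA receptor subunits and their auxiliary TARP proteins had a median of -0.13 over 10 genes with 2 past 3-fold, both higher at P6. Gria3, an AMPA receptor subunit, had a log2 mean of -0.28 ± 1.89 (SD, n = 5 cells) at P6 and -4.05 ± 0.36 (SD, n = 5 cells) at P30, and all 5 P6 cells lay above all P30 cells, as in 2.13% of all genes. The fold was 13.6, with 1 cell at the floor of the ratios, 0.01, in at least 1 of its probe sets. It was 22.5 without P6 cell 5 and 9.96 without P6 cell 4. Cacng4, a TARP, was 9.97-fold higher at P6, at -0.73 ± 1.47 (SD, n = 5 cells) against -4.05 ± 1.32 (SD, n = 5 cells), with 2 cells at the floor. Its fold was 15.6 without P6 cell 2 and 8.31 without P30 cell 5. All genes together had a median of 0.05, with 1683 past 3-fold at P6 and 883 at P30.

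The Kv1 channel complex, to which Adam11, Adam22 and Lgi3 are tied in axons, had a median of 0.27 over 8 genes and 0 past 3-fold, the widest being the channel subunit Kcna4 at 0.95. The 14-3-3 proteins, which bind the cytoplasmic tail of Adam22, were all higher at P6, 6 of 6, beside 9387 of all 17919 genes. Their median was 0.52 with 0 past 3-fold. The widest was Ywhah at 1.37, which became 0.05 without P30 cell 3 and was past 3-fold without P30 cell 1, 2 or 4 (3.76, 3.38 and 3.10-fold). Ywhaz, at 1.10 or 2.14-fold, was the 1 gene of the list in which no P30 cell reached the lowest P6 cell, as in 2.13% of all genes. Ywhaz was named after its values were seen. Of the other partners and genes with EPTP repeats, 3 of 4 were measured, with a median of 0.41 and 0 past 3-fold, the widest being the Nogo receptor Rtn4r at 0.60. Of the other ADAM genes, which encode mostly active proteases, 7 of 8 were measured, with a median of -0.21 and 0 past 3-fold, the widest being the sheddase Adam17 at -0.65. The 4 ligands had a median of -0.67 and the 3 receptors of -0.98.

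**Figure D4:**
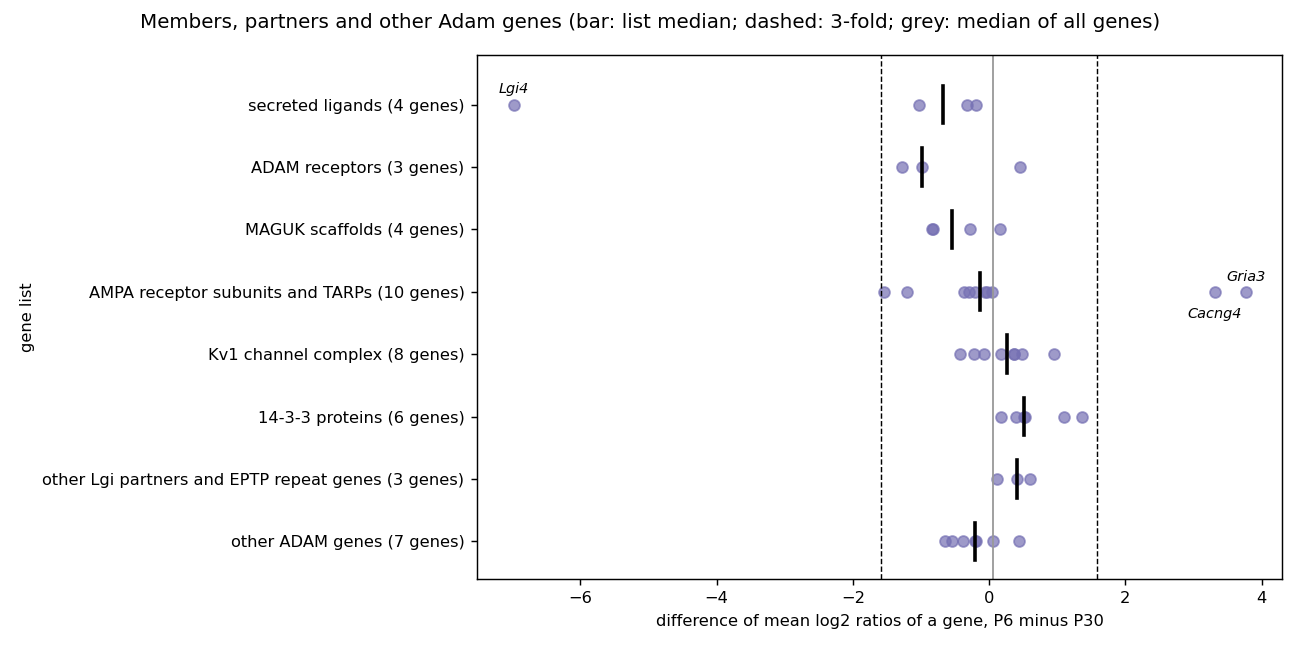
Mean log2 ratio at P6 minus that at P30 (x axis) of each gene (points) in the ligand, receptor, partner and other ADAM lists, with the list median as a black bar, the median of all genes as a grey line and 3-fold as dashed lines. Genes past 3-fold are named: Lgi4 at -6.98 toward P30, and Gria3 at 3.77 and Cacng4 at 3.32 toward P6.

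The genes whose profile over the 10 cells was most like that of Lgi4 were Nbl1, Fah, S100a10, Dao and Glipr2. Likeness was the root mean square log2 difference between profiles, each centred on its own mean. It was 0.85 for Nbl1 (a secreted BMP antagonist), 0.99 for Fah (the last enzyme of tyrosine breakdown), 1.17 for S100a10 (the partner of annexin A2), 1.29 for Dao (D-amino acid oxidase) and 1.38 for Glipr2. The median over all genes was 3.78. The 5 genes were 173, 65.9, 37.1, 39.4 and 29.3-fold higher at P30, in this order, and in each all P30 cells lay above all P6 cells, as in 1.41% of all genes. The measure includes the gap between the ages, which all 5 share with Lgi4. Without P6 cell 5 Nbl1 was 340-fold higher at P30, and without P6 cell 3 it was 138-fold.

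Around Lgi4 the nearest 5 measured protein-coding genes on each side were read in RefSeq order, a choice made after their values were seen. Of these 10, 3 were past 3-fold at P30 and 1 at P6, against 4.93% and 9.39% of all genes. The 3 were Fxyd1, Fxyd7 and Fxyd5, which encode small regulators of the sodium pump and lie in a row on one side of Lgi4. Fxyd1 was at 3.87, -0.17, 0.00, -1.64 and 3.66 log2 units in the P6 cells and 5.83, 5.41, 5.36, 3.22 and 5.10 in the P30 cells, 14.3-fold higher at P30. P30 cell 4 alone overlapped with the P6 cells, and with single cells left out the fold ran from 8.82 (without P6 cell 4) to 23.0 (without P6 cell 1). Fxyd7 was 18.7-fold higher at P30, at 0.48 ± 2.84 (SD, n = 5 cells) against 4.71 ± 4.04 (SD, n = 5 cells), with P30 cell 4 at -2.12, below every P6 cell. The fold was 61.2 without that cell, 42.2 without P6 cell 2 and 11.1 without P30 cell 1. Fxyd5 was at -0.07 ± 0.20 (SD, n = 5 cells) and 2.93 ± 2.43 (SD, n = 5 cells), 8.0-fold higher at P30, and all P30 cells lay above all P6 cells, as in 1.41% of all genes. It was 3.95-fold higher without P30 cell 5.

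Fxyd3, on the other side, overlaps Lgi4 in its annotated span, and how far its probe set and that of Lgi4 read the same transcripts was not tested. It was 2.39-fold higher at P30, at -0.29 ± 0.66 (SD, n = 5 cells) against 0.97 ± 0.52 (SD, n = 5 cells), with all P30 cells above all P6 cells, as in 1.41% of all genes. The next genes out on that side were Hpn, at a difference of -0.08, and Gramd1a, 6.17-fold higher at P6 (10.4-fold without P30 cell 2 and 4.45-fold without P30 cell 1). Beyond Fxyd5 on the first side were Fam187b at -0.57 and Lsr at -0.08. Over the nearest measured neighbour on each side of all 7 members, 3 of 14 were past 3-fold at P30 and 2 at P6, against 4.93% and 9.39% of all genes.

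**Figure D5:**
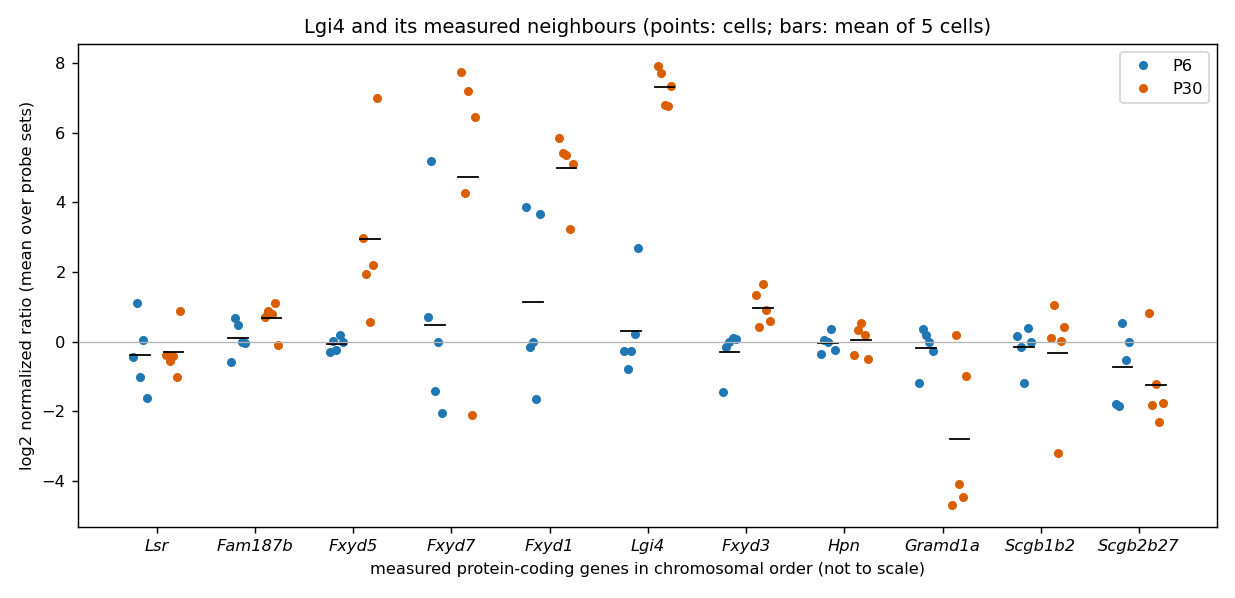
Log2 normalised ratio (mean over the probe sets of a gene) of Lgi4 and its 5 measured neighbours on each side in chromosomal order, not to scale, with 1 point per cell (P6 blue, P30 orange) and bars for the mean of 5 cells. Lgi4 and its neighbours Fxyd1, Fxyd7 and Fxyd5 have means at P30 of 7.30, 4.98, 4.71 and 2.93, while Hpn and Lsr stay near 0 at both ages.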

How the data were processed

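The labels and the study's methods give 1 Affymetrix whole-genome mouse expression array for each of 10 cells, 5 per age. The deposited values are linear ratios made by the authors with RMA in GeneSpring GX, which raised values below 0.01 to 0.01 and then divided every array by its median and every probe set by a median of its own. A genome build for the array values is not given in the sources used here, and GRCm38.p6 is that of the promoter table. Array signal over background is not known from ratios, and precision is limited by how few arrays there are.

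Of 45101 probe sets, 43608 had a value in all cells and 1493 with a blank were left out. The annotation gave 34958 probe sets 1 gene, 932 several and 9211 none. The 10 values of 0 were set to 0.01, and 1.07% of P6 and 1.73% of P30 values were at 0.01, none in the family. A gene was the mean log2 ratio over its probe sets. Analyses used Python 3.11.15, NumPy 2.4.6, pandas 2.3.3 and Matplotlib 3.10.9, and the code that takes the differences was checked on simulated data with known differences.

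Since each age is 1 sample, no p-value was computed. Sizes were set against a rule of 3-fold, and a marker deviation is a cell minus the median of the other 4 of its age. The genes named are all members, per list the genes past 3-fold (up to 4) or the widest, the 5 profiles nearest to a gene past 3-fold, and up to 3 markers for a cell that stands apart. The other oligodendrocyte, astroglial and neighbouring genes were named after their values were seen. Members and lists were chosen with earlier results of these data known. Alternatives were other scalings, floors, averages and size rules, genes without their probe sets of type _x_at and _s_at, and each cell left out in turn. Leaving out cell 5 of both ages and scaling to 9 hybridisation spike probe sets were chosen after seeing the data. Protein sequences, and the genes Tspear, Adam9, Itpr1, P2ry12 and Ly6c1, were not analysed here.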

Additional observations from a re-analysis of the deposited data

Results flagged for a closer look

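In 2 of the 30 groups of 5 cells over the family probe sets, 1 cell stood further from the others than Dixon's 95% limit, which chance passes in about 1 in 20 groups. Both were P30 cell 5, at a log2 ratio of 5.57 for Lgi3 (1433667_at) and of 4.70 for Adam22 (1451812_at). Of 16 groups of marker medians, 4 passed the limit. P30 cell 5 was low for astroglial markers, at -0.37, and high for granule neuron markers, at 0.44. P6 cell 5 was high for neuronal markers, at 2.09, led by Nefm (7.56 log2 units above the median of the other P6 cells). Pvalb (7.12) and the endothelial Kdr (5.98) were raised as well, while their lists as a whole were not. The median deviation of P6 cell 5 was 0.38 over the Purkinje neuron genes and -0.42 over the genes of endothelium and pericytes. P6 cell 3 was low for granule neuron markers, at -0.86.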

How the results depend on the processing

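Lgi4 and Lgi3 probe set 1460546_at were past 3-fold at P30 in each setting run at that size. The count past 3-fold at P30 (2) was 6 with arithmetic means and 4 with differences of medians, and 8 with a rule of 2-fold and 1 with 5-fold. The count at P6 (1, Adam22) was 0 under median scaling, a floor of 0.1, arithmetic means, differences of medians and a rule of 5-fold. The count of probe sets with all P30 cells above all P6 cells (1) was 3 under median scaling (with Lgi3 1460546_at and Adam11 1455270_at) and 3 without cell 5 of both ages (with Lgi3 1460546_at and Adam23 1423378_at). With single cells left out these counts ranged from 2 to 4 for P30 (4 without P30 cell 2 or 4), from 0 to 1 for P6 (0 without P6 cell 2 or 3 or P30 cell 3 or 4), and from 1 to 3 for cells apart (2 without P6 cell 3 or 4 or P30 cell 3, and 3 without P30 cell 5). Over all probe sets 1.20% had all P30 cells above all P6 cells. That share rose to 2.47% under median scaling, 3.27% without P30 cell 5 and 4.00% without cell 5 of both ages. The share of all probe sets past 3-fold at P30, 6.60%, was 8.05% under median scaling and 7.35% without P30 cell 5. At P6 the share of 11.1% was 9.58% and 12.4% in these settings. For the other settings no share over all probe sets is given here, so nothing is read from their counts. The median of the Kv1 list (0.27) was -0.12 with arithmetic means, and that of the 14-3-3 list (0.52) was 0.28 with arithmetic means and 0.82 under spike scaling. Median scaling shifted the median of all differences by -0.16 and spike scaling by 0.30. Under spike scaling the median of the AMPA receptor list turned from -0.13 to 0.17 and that of the other ADAM genes from -0.21 to 0.09. The cause of these changes was not tested. No paired analysis was possible because equal replicate numbers mark cells of mice of different ages and the results come from no test.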
